A study of Homo sapiens with 10 samples.

Results

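The genes described here are antisense noncoding RNAs expressed in Caco-2 cells, a human colon carcinoma line that forms a polarized, enterocyte-like epithelium. Members were chosen by annotation and by measured level. A gene was kept when at least 1 of its transcripts was annotated as antisense, none was annotated as protein coding or lincRNA, and its summed estimated counts exceeded 3 RPM (estimated counts scaled to a library total of 1000000) in at least 5 of the 10 libraries. Of 60554 genes, 5689 had this annotation and 722 of these passed the level. 5 of these, the small nucleolar RNA hosts ZFAS1, SNHG7, SNHG10, SNHG12 and SNHG14, were left out by name, which left 717. 1 locus, LINC00685, is counted as 2 members, under the gene identifiers of the X and Y copies of a region shared by both chromosomes. The level rule used the same values that are compared below: 404 members exceeded 3 RPM in all 10 libraries, 49 did so in exactly 5 (mean level 2.18 to 35.8 RPM, median 3.04), and 70 antisense genes just outside did so in 4 (1.81 to 5.93 RPM, median 2.81). 4 members passed through the 5 gCtl libraries alone and 1 through the 5 guide libraries alone, and those 5 had to differ between the groups. They are RP11-161H23.5, RP11-138C9.1, AC079742.4, AC005339.2 and MGAT3-AS1.

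An antisense RNA is transcribed from the strand opposite to another gene, often a protein-coding one. Some start near the promoter of the coding gene and run away from it (head to head), some run through its body or across its 3′ end (tail to tail), and some lie in its introns. The best known of them act on the chromosome they are made from, as KCNQ1OT1 does in the imprinted KCNQ1 domain, while most have no assigned function and many are cut short and degraded in the nucleus by the RNA exosome. Their levels are usually low.

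The libraries came from a stable monoclonal Caco-2 line that carries dCas9-KRAB, a Cas9 without cutting activity fused to a repressor domain (CRISPR interference), selected with puromycin. To it was added, by lentivirus and hygromycin selection, a guide plasmid: empty in the control (gCtl, n = 5), or with guide g1 (n = 3) or guide g2 (n = 2) against LHFPL3-AS2, a long noncoding RNA on chromosome 7. All groups share the clone and the repressor. The labels do not say whether the libraries of a group came from separate cultures, so p-values measure only the spread between these libraries.

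Reads came from the 3′ ends of polyadenylated RNA (QuantSeq), and the totals ran from 3838803 to 5674360 estimated counts in gCtl, from 4649985 to 8730468 in g1, and were 6130698 and 7325087 in g2. The target was measured at 1.73, 0.841, 3.73, 1.73 and 3.12 RPM in gCtl, 3.07, 3.95 and 2.03 RPM in g1 and 2.16 and 6.01 RPM in g2, from 4.39 to 44.0 counts a library. The guide libraries were not lower (difference, guides minus gCtl, of 0.47 in log2(RPM + 1), exact two-sided permutation p = 0.19). The authors report a reduction with both guides by qPCR, another measure, which these few counts did not show. The guide libraries are therefore called by their labels. 10 summed markers of colon epithelium were at 2137 to 2895 RPM in gCtl and 2019 to 2519 RPM with guides. In the same order, 3 fibroblast markers summed to 16.5 to 37.2 and 4.41 to 14.8 RPM, 3 endothelial ones to 2.16 to 3.66 and 2.20 to 10.1 RPM, and 4 leukocyte ones to 2.83 to 4.50 and 0.41 to 2.86 RPM, of which 1 was at 0 throughout. The fibroblast sum was mostly PDGFRA (median 18.6 RPM in gCtl, 2.32 with guides), beside COL1A1 (5.23 and 4.24) and COL3A1 (0.18 and 0). Among the epithelial markers, the medians of all 3 keratins were lower with guides: KRT18 (573 and 279 RPM), KRT8 (238 and 152) and KRT19 (342 and 228). CDH1 (149 and 113), APOA1 (472 and 410) and FABP1 (15.0 and 9.69) were lower too. EPCAM (723 and 810), CDX2 (42.3 and 56.0) and VIL1 (158 and 165) were higher, and CDX1 was at 0 in 7 libraries. The g2 libraries stood apart in the summed level of 683 lincRNA genes, 276902 and 272053 RPM. The sum was 81240 to 121049 RPM in gCtl and 100543 to 182838 RPM in g1. The median lincRNA gene did not stand apart, with a log2 fold change against gCtl of 0.27 in g2 and 0.21 in g1. In g2 against g1 the median was 0.07, with 10 genes called higher (1.46%, beside 1.17% of all genes) and 16 lower (2.34%, beside 2.79%). Chromosome 21 genes, looked at after the values were seen, were also lower in g2 (median log2 fold change of 160 genes -0.33 against gCtl, beside 0.02 in g1). The medians of the other autosomes in g2 against gCtl ran from -0.28 to 0.29.

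Most members carried clone-based names (481 of 717), and 354 had a single annotated transcript. In the GENCODE release used for positions (release 29, GRCh38), 707 members were found. Of these, 255 ran over the last 300 exon bases of a coding gene on the opposite strand (called its 3′ end), 209 over other opposite coding exons, 65 lay head to head with a coding gene within 1000 bases without exon overlap, and 178 had no opposite coding exon. 35 shared at least 1 exon base with coding exons of the same strand. The authors' counting is not stated to use strand, so reads of an antisense RNA and of coding exons opposite to it cannot be told apart where they overlap.

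The kit primes at poly(A), so the annotated transcript ends were read first. The hexamers AATAAA or ATTAAA, the common cleavage and polyadenylation signals, stood within the last 50 bases of at least 1 annotated transcript, on its own strand, for 58.8% of the 707 members, against 67.6% of lincRNA genes at the same level, 91.5% of protein-coding genes tested and 83.7% of all genes tested. The last 60 bases of 6 members that rose or fell are shown 5′ to 3′, with the signals in capitals, 1 annotated end for each. Only ends whose last 60 bases lie in a single exon and outside the exons of coding genes were considered. Where a member has several such ends and some lack a signal, an end that holds one was chosen. Of the ends considered, 6 of 9 of RASSF8-AS1 and 1 of 3 each of AC020571.3 and AL157895.1 hold none. AL157895.1 is the release 29 symbol of gene ENSG00000233968.6. They lie, in the order printed, at chr6:28121795-28121854 (minus strand), chr2:196264145-196264204 (plus strand), chr10:19710328-19710387 (minus strand), chr12:25944857-25944916 (minus strand), chr11:75260966-75261025 (plus strand) and chr1:214028891-214028950 (minus strand) of GRCh38. The first 4 sequences hold a signal, and the last 2, from members with a single end considered, do not.
ZSCAN16-AS1: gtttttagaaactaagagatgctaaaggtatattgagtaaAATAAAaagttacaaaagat
AC020571.3: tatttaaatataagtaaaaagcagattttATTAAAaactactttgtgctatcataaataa
AL157895.1: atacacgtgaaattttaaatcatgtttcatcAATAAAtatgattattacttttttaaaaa
RASSF8-AS1: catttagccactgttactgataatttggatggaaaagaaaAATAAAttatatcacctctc
CTD-2562J17.7: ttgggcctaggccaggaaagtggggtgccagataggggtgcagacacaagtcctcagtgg
PROX1-AS1: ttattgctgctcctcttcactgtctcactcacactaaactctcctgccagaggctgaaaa

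At the other end of the transcript, RefSeq promoter windows (250 bases before to 50 after the start, GRCh38.p14) matched 170 members by identifier or symbol. They held a median of 19 CG dinucleotides, against 14 over the 27305 promoters of the table, 26 for the protein-coding genes tested and 11 for lincRNA genes at the same level. The protein-coding and lincRNA genes were matched by symbol alone. The 16 matched members that rose held a median of 19.5 and the 5 that fell 8. A pair of windows is shown because their genes sit head to head with a partner gene and behaved differently beside it. PPP3CB-AS1 lies at chr10:73495502-73495801 (plus strand) with 19 CG and RASSF8-AS1 at chr12:25959393-25959692 (minus strand) with 8, CG in capitals.
PPP3CB-AS1: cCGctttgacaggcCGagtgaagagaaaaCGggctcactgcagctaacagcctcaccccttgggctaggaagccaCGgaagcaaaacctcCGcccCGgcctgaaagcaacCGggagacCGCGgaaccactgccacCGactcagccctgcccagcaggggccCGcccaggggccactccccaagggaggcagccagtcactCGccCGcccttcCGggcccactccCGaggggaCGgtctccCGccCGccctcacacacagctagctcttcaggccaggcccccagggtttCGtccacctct
RASSF8-AS1: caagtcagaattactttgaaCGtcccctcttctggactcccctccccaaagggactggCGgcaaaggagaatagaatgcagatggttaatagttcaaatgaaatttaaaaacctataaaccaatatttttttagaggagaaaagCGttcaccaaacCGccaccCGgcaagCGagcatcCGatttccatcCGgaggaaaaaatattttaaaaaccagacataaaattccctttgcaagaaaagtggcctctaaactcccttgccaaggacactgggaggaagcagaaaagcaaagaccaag

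In sum, the members took 1.11% to 1.30% of all counts in gCtl, 1.06% to 1.25% in g1, and 0.947% and 1.17% in g2, so their summed level overlapped between the groups. The median member stood at 6.94 RPM over the 10 libraries (middle 50%: 4.36 to 12.8), 234 exceeded 10 RPM and 11 exceeded 100 RPM. RPM is not divided by length, so its order is one of reads. The median member had 21.8 to 61.0 counts in a library, which limits what could be called for the lower ones.

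KCNQ1OT1, the antisense RNA of the imprinted KCNQ1 locus (chr11:2608328-2699994, minus strand), was the most abundant member. It was measured at 933, 1183, 1450.2, 1189 and 1128 RPM in gCtl, 851, 1068 and 629 RPM in g1 and 642 and 634 RPM in g2. The g2 libraries lay below every gCtl library, while g1 overlapped gCtl. Its difference over both guides stayed short of the 1.5-fold limit (log2 fold change -0.57 ± 0.16 (SE), adjusted p = 0.0212), and it fell in g2 (log2 fold change -0.76 ± 0.20, adjusted p = 0.0128).

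RP11-386G11.10 (chr12:49127782-49147869, plus strand), which runs over the 3′ end of the alpha-tubulin gene TUBA1B, was the second by level. It was found at 987, 1536, 828, 1233 and 769 RPM in gCtl, 460.0, 385 and 299 RPM in g1 and 163 and 135 RPM in g2, so that every guide library lay below every gCtl library and g2 below g1. It fell with either guide (log2 fold change -1.48 ± 0.22 in g1 and -2.72 ± 0.28 in g2) and in both together (log2 fold change -1.86 ± 0.29 (SE), adjusted p = 0.000691). In gCtl it took 98.7% of the reads assigned to it and TUBA1B together. TUBA1B was at 13.9 ± 1.85 RPM in gCtl and 9.62 ± 2.20 RPM with guides (SD, n = 5 each), with a log2 fold change of -0.46 and adjusted p = 0.133. 72.4% of the exon bases of RP11-386G11.10 lie in TUBA1B exons, and alpha-tubulin genes are near-identical copies, so its values are uncertain as those of an antisense RNA.

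MIF-AS1, opposite to the cytokine gene MIF, came next, at 262, 299, 247, 247 and 289.5 RPM in gCtl, 337, 426 and 304 RPM in g1 and 350.0 and 417 RPM in g2. All guide libraries lay above all gCtl libraries, but the change was under 1.5-fold (log2 fold change 0.50 ± 0.13 (SE), adjusted p = 0.0155), and only the g2 comparison passed (log2 fold change 0.63 ± 0.16, adjusted p = 0.00974). The other 7 of the 10 highest members were not called over both guides. RP11-846F4.12, over MTRNR2L1, a nuclear copy of mitochondrial sequence, was at 133 to 361 RPM in gCtl and 182 to 465 RPM in the guide libraries, and reads of its copies could be split. RP11-1079K10.4 over PHB (prohibitin) gave 187 to 300.4 RPM in gCtl and 142 to 235 RPM in the guide libraries, CTD-2256P15.4 over the chaperonin gene CCT5 143 to 222 RPM in gCtl and 81.1 to 194 RPM in the guide libraries, and RP3-323A16.1 141 to 201 RPM in gCtl and 132 to 188 RPM in the guide libraries. SCARNA9, a small Cajal body RNA, was at 138 to 249.8 RPM in gCtl and 65.9 to 185 RPM in the guide libraries. A pair of members overlap genes of the mevalonate pathway, CTD-2636A23.2 over HMGCS1 (104 to 164 RPM in gCtl and 98.2 to 149.8 RPM in the guide libraries) and RUSC1-AS1 over FDPS (85.3 to 154 RPM in gCtl and 91.0 to 168 RPM in the guide libraries). Of these 7, RP11-846F4.12 and RP11-1079K10.4 passed the test in g2 alone (log2 fold change 0.86 and -0.59), and whether they differed between the guides did not pass (adjusted p = 0.139 and 0.253).

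**Figure D1:**
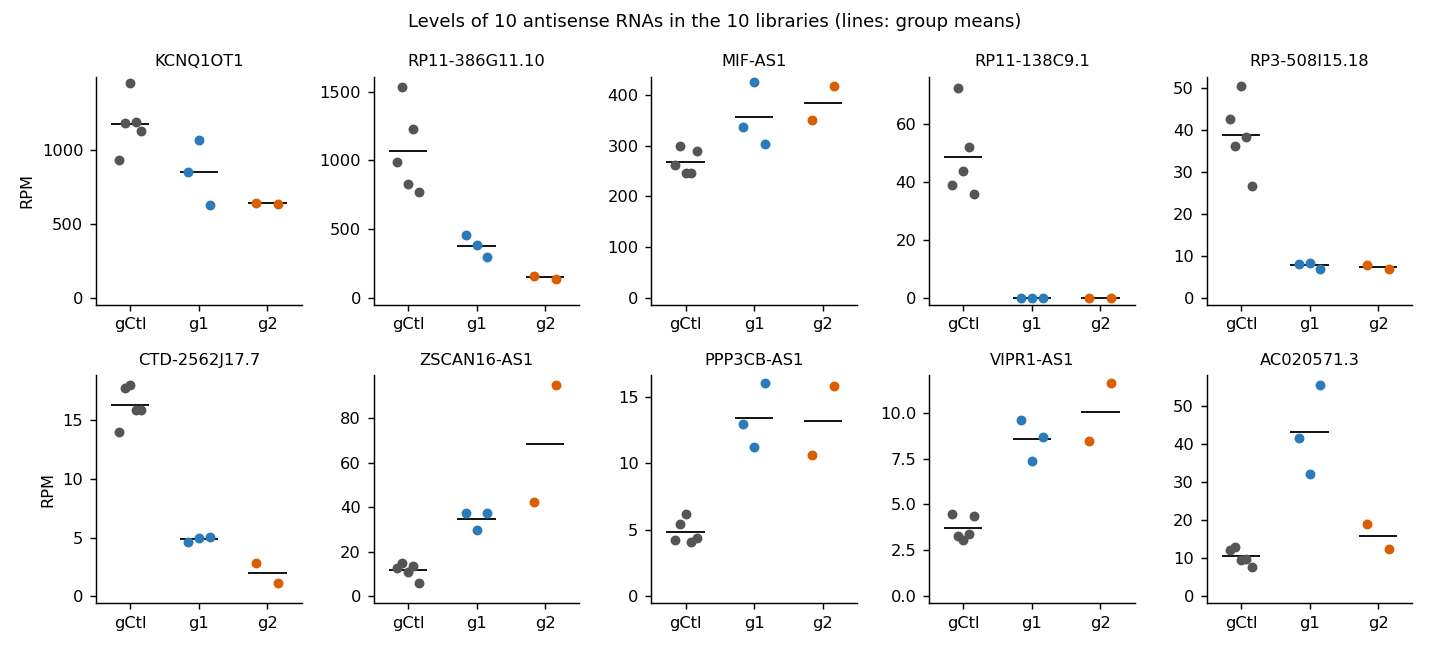
Levels of 10 antisense RNAs in RPM (vertical axes, each starting at about 0) in the gCtl (n = 5), g1 (n = 3) and g2 (n = 2) libraries, 1 point a library, with lines at group means. RP11-138C9.1 is at 0 in all 5 guide libraries, RP3-508I15.18 falls from at least 26.7 RPM to at most 8.30 RPM, and AC020571.3 is higher in g1 than in g2.

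The first comparison asked what differed between the libraries with a guide (g1 and g2, n = 5) and gCtl (n = 5). In edgeR's quasi-likelihood test over 14657 genes, where a call needs a fold of 1.5 or more and a p, adjusted by Benjamini-Hochberg, no higher than 0.05, 98 of the 717 members were called (13.7%), beside 17.5% of all genes tested. 60 members rose (8.37%, beside 7.55% of all genes) and 38 fell (5.3%, beside 9.97%). The share that rose was near that of all genes and the share that fell was below it. Members were also lower in level than all genes (median 6.94 against 12.97 RPM), and of the 359 members at or above their median level 44 rose and 28 fell (20.1% called). Without the 5 members that had to differ, 59 of 712 rose and 34 fell (median log2 fold change 0.22). The median of all 717 was 0.21, beside 0.04 over all genes, -0.01 over 11640 protein-coding genes and 0.25 over 683 lincRNA genes at the same level, of which 83 rose and 22 fell. In bulk RNA, fewer cells that make an RNA and less RNA per cell cannot be told apart. The split of the calls moved with the scaling: scaled by library totals alone, 45 members rose and 41 fell (52.3% higher, against 61.2%), and with limma on log2(RPM + 1) 43 rose and 42 fell. The member median lay above that of all genes in each alternative fit, by 0.14 to 0.19, and by 0.13 to 0.22 when 1 library was left out.

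Taking the libraries one by one, 58 members (8.09%) had no overlap between gCtl and the guide libraries, 31 above and 27 below, beside 12.9% of all genes. 48 of these 58 were also called. Leaving out gCtl library 1, 2 or 4 lowered the count of calls to 65, 62 and 62, while the other libraries left it between 68 and 109.

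Of the rises, the member with the largest estimate was AC144449.1, a low RNA that starts 620 bases from MMADHC, a gene of cobalamin metabolism, on the opposite strand. It was measured at 3.07, 1.30, 1.22, 0 and 0.579 RPM in gCtl, 5.19, 3.99 and 8.77 RPM in g1 and 6.05 and 5.08 RPM in g2, with 1 gCtl library at 0 (log2 fold change 2.32 ± 0.52 (SE), adjusted p = 0.00648). ZSCAN16-AS1, opposite to the zinc-finger gene ZSCAN16, rested on more reads, with 12.8, 15.0, 10.7, 13.8 and 6.19 RPM in gCtl, 37.7, 29.7 and 37.5 RPM in g1 and 42.4 and 94.8 RPM in g2. Every guide library lay well above every gCtl library, and 1 g2 library lay far above the rest (log2 fold change 2.13 ± 0.31 (SE), adjusted p = 0.000481).

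PPP3CB-AS1, which starts 499 bases from PPP3CB, the gene of a calcineurin catalytic subunit, and runs over the 3′ end of USP54, was steady within groups, at 4.21, 5.46, 6.21, 4.06 and 4.42 RPM in gCtl, 13.0, 11.3 and 16.02 RPM in g1 and 10.6 and 15.8 RPM in g2 (log2 fold change 1.51 ± 0.22 (SE), adjusted p = 0.000434). VIPR1-AS1, opposite to the gene of a receptor for vasoactive intestinal peptide, was at 4.49, 3.26, 3.07, 3.41 and 4.39 RPM in gCtl, 9.63, 7.35 and 8.68 RPM in g1 and 8.46 and 11.6 RPM in g2 (log2 fold change 1.35 ± 0.24 (SE), adjusted p = 0.00159). Neither overlapped between gCtl and the guides. AL157895.1 (ENSG00000233968.6), in an intron of MALRD1, rose, with 1.52 to 3.76 RPM in gCtl and 5.09 to 9.79 RPM in the guide libraries (log2 fold change 1.55 ± 0.31), and RP11-728F11.4, opposite to FXYD6, with 0.767 to 3.02 RPM in gCtl and 3.43 to 5.65 RPM in the guide libraries (1.39 ± 0.37).

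RP11-864G5.3 lies wholly inside exons of YAP1, the Hippo pathway effector, over its 3′ end, and rose, with 3.25 to 6.85 RPM in gCtl and 8.70 to 21.6 RPM in the guide libraries (log2 fold change 1.42 ± 0.30, adjusted p = 0.00457). YAP1 was at 62.5 ± 6.72 RPM in gCtl and 79.6 ± 15.5 RPM with guides (SD, n = 5 each) and was not called (adjusted p = 0.0732). AC020571.3, in HECW2 with no coding exon opposite, was the 1 of these 8 largest rises that differed between the guides. Its levels were 12.2, 13.0, 9.56, 9.75 and 7.75 RPM in gCtl, 41.7, 32.0 and 55.7 RPM in g1 and 19.1 and 12.4 RPM in g2, and 1 g2 library lay below the highest gCtl library, so that the groups overlapped. It rose in g1 (log2 fold change 2.08 ± 0.24), while g2 gave 0.72 ± 0.28 with adjusted p = 0.0731.

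3 members that fell were at 0 in all 5 guide libraries, and each lies almost wholly in exons of an opposite coding gene and runs over its 3′ end. RP11-138C9.1 (chr17:47682417-47682683, minus strand), inside exons of the importin gene KPNB1, was at 38.8, 72.4, 43.7, 51.9 and 35.8 RPM in gCtl. RP11-161H23.5 (chr12:49265156-49273306, minus strand), over the alpha-tubulin gene TUBA1C, another of the near-identical copies, was at 30.8, 126, 71.1, 107 and 22.7 RPM. AC005339.2 (chr19:4654964-4655524, minus strand), in TNFAIP8L1, was at 3.09, 4.27, 4.997, 6.17 and 3.28 RPM. Against a floor of 3 counts per library, they were at least 101-fold, 149-fold and 9.05-fold lower, with edgeR's adjusted p of 6.25e-07, 4.2e-05 and 0.000121. These 3 entered through gCtl alone, so a difference was bound to be there. Estimated counts divide reads between overlapping transcripts, so a listed 0 can also be an estimate that gave every read to another transcript, which was not tested.

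The coding genes opposite to them were not called. KPNB1 was at 1778 ± 106 RPM in gCtl and 1477 ± 236 RPM with guides, TUBA1C at 662 ± 91.0 and 445 ± 194 RPM, and TNFAIP8L1 at 61.6 ± 17.73 and 88.5 ± 26.6 RPM (SD, n = 5 each) (adjusted p = 0.256, 0.134 and 0.079).

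RP3-508I15.18, 97.6% of which lies in exons of SUN2, the gene of an inner nuclear membrane protein, fell with little spread. It was at 42.6, 36.2, 50.4, 38.3 and 26.7 RPM in gCtl, 8.15, 8.30 and 6.95 RPM in g1 and 7.83 and 6.83 RPM in g2, with a wide gap between the groups (log2 fold change -2.29 ± 0.18 (SE), adjusted p = 5.13e-06). AC079742.4, within ZDHHC4, was at 4.03 to 6.32 RPM in gCtl and 0 to 2.51 RPM in the guide libraries, and RP11-746M1.1, within exons of the deubiquitinase gene USP22, at 12.8 to 26.8 RPM in gCtl and 0 to 9.86 RPM in the guide libraries (log2 fold change -2.43 ± 0.65 and -2.08 ± 0.52). ZDHHC4 and USP22 were not called (log2 fold change 0.24 and -0.18).

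2 of the 8 largest falls did not lie mainly in coding exons. CTD-2562J17.7 (chr11:75260127-75261025, plus strand), with no coding exon opposite, was at 13.98, 17.75, 17.98, 15.9 and 15.8 RPM in gCtl, 4.63, 4.95 and 5.03 RPM in g1 and 2.80 and 1.14 RPM in g2 (log2 fold change -2.09 ± 0.30 (SE), adjusted p = 0.000398), and no guide library reached a gCtl value. RP11-401P9.6 shares only 2.71% of its exon bases with NKD1, an inhibitor of Wnt signalling, and both were lower. It was at 7.81, 11.5, 15.1, 12.5 and 11.98 RPM in gCtl, 6.43, 2.80 and 2.45 RPM in g1 and 0.326 and 1.17 RPM in g2 (log2 fold change -2.15 ± 0.44), and NKD1 at 41.1 ± 3.88 RPM in gCtl and 8.56 ± 3.29 RPM with guides (log2 fold change -2.24, adjusted p = 2.47e-05).

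3 members lie in the HOXA homeobox cluster, named here after their values were seen, and 2 of them fell. HOTAIRM1 was at 13.4 to 26.5 RPM in gCtl and 7.64 to 12.3 RPM in the guide libraries (log2 fold change -0.94 ± 0.20, adjusted p = 0.0047), and HOXA-AS2 at 10.4 to 14.9 RPM in gCtl and 4.57 to 8.39 RPM in the guide libraries (-0.86 ± 0.20, adjusted p = 0.00814). In neither did the groups overlap. The remaining one, HOXA-AS3, was at 13.1 to 22.4 RPM in gCtl and 11.3 to 21.1 RPM in the guide libraries and was not called (-0.17 ± 0.21, adjusted p = 0.588).

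The calls were not spread evenly over the kinds of locus. Of the 44 members with at least 95% of their exon bases inside coding exons of the opposite strand, 2 rose (4.55%, beside 7.55% of all genes) and 15 fell (34.1%, beside 9.97%), and the median was -0.42 on the log2 scale. Of the 238 members with 10% to 95%, 24 rose (10.1%) and 10 fell (4.2%, median 0.25), and of the 425 under 10%, 33 rose (7.76%) and 13 fell (3.06%, median 0.25). The rises in these 2 classes were near the share of all genes and the falls below it. 37 of the 44 lay over a coding 3′ end. 12 of the 44 had no overlap between gCtl and the guides (27.3%, beside 12.9% of all genes), 11 of them lower. 4 of the 15 falls are members that passed the level rule through gCtl alone, and without them 2 of 40 rose and 11 fell (median -0.33), with 7 lower and without overlap. The limits of 95% and 10% were set with results of these data known, and 1 further member at 94.9%, RP11-1100L3.7, fell too (log2 fold change -1.19). The same 44 gave 2 rises and 13 falls in g1 (median -0.40) and 2 and 15 in g2 (median -0.57), comparisons that share the gCtl libraries. Summed over the 44, the level was 896 to 1210 RPM in gCtl, 719 to 950 RPM in g1, and 665 and 601 RPM in g2. Members with no base in opposite coding exons summed to 2093 to 2687 RPM in gCtl and 2212 to 2997 RPM with guides.

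Besides those already described, the falls among the 44 took in CTB-12A17.3, within the calmodulin gene CALM3 (log2 fold change -1.87 ± 0.29), RP1-56K13.3, within LASP1, an actin-binding protein (-1.68 ± 0.40), AC010761.10 in TRAF4 (-1.62 ± 0.45), RP11-19P22.8 in KSR1 (-1.45 ± 0.41), AP003419.16 in the ribosomal S6 kinase gene RPS6KB2 (-1.35 ± 0.30), RP11-498C9.13 in PYCR1 (-1.28 ± 0.27), RP11-112J3.15 in RGP1 (-1.04 ± 0.35), RP11-120K9.2 in the channel kinase gene TRPM7 (-0.94 ± 0.18) and AP003396.1 (ENSG00000245385.2) in RNF26 (-0.92 ± 0.25), and the other rise was RP11-247A12.8 in IER5L (1.22 ± 0.37). 39 of the 44 had a tested opposite coding gene. 3 of these genes rose and 2 fell (median log2 fold change 0.01). Of the 14 members that fell and had a tested opposite gene, RPS6KB2 was the 1 opposite gene that was called, and it rose (log2 fold change 0.96, adjusted p = 0.0126), from 4.08 ± 0.596 to 7.63 ± 1.53 RPM (SD, n = 5 each). TRPM7, for example, was at 93.9 ± 9.32 and 98.4 ± 14.01 RPM while RP11-120K9.2 was at 17.65 to 34.3 RPM in gCtl and 12.6 to 15.1 RPM in the guide libraries.

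The 44 also differed in their annotated ends. The split did not use the signals, but it set where nearly all exon bases lie, so ends and split are not independent. A polyadenylation signal stood within the last 50 bases for 2 of the 44 (4.55%), for 57.6% of the members with 10% to 95% and for 65.2% of those under 10%. More transcripts give a gene more ends to search, but among members with a single transcript the shares were 47.3% and 47.4% in the 2 lower classes, and none of the 39 in the highest class held one. Absence of these hexamers says only that they are not in this window.

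By position, the members over a coding 3′ end gave 20 rises and 24 falls of 255 (7.84% and 9.41%), near the shares of all genes (7.55% and 9.97%). Those over other coding exons gave 15 and 6 of 209 (7.18% and 2.87%), those head to head 7 and 2 of 65 (10.8% and 3.08%), and those with no opposite coding exon 17 and 6 of 178 (9.55% and 3.37%).

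Against gCtl, g1 called 65 members (9.07%, beside 13.9% of all genes) and g2 149 (20.8%, beside 21.8%). With g1, 37 rose (beside 5.47% of all genes) and 28 fell (beside 8.39%), and with g2, 89 rose (beside 9.82%) and 60 fell (beside 11.9%). The median member was at 0.18 with either guide. g2 rests on 2 libraries with the higher lincRNA sum given above, and its counts moved with each of them: 53 members were called without g2 library 2 and 206 without g2 library 1. Without gCtl library 4 or g1 library 2 or 3, g1 called 43, 40 and 34. Scaled by library totals alone, g2 gave 60 rises and 73 falls, a share of 45.1% higher against 59.7%, limma on log2(RPM + 1) gave 47 and 78, and without g2 library 2 there were 14 rises and 39 falls. With library totals the median of all genes moved from 0.02 to -0.10. The member median, 0.07 in that scaling, kept a gap of 0.16 to all genes. In the main scaling the gap moved with the g2 libraries, to 0.07 without g2 library 2 and 0.36 without g2 library 1.

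Where a symbol names a coding gene, the antisense RNA was set beside it. 197 members had such a partner, 196 of them on the opposite strand, and 152 partners were tested. In 110 pairs neither gene was called, in 24 the partner alone (4 higher, 20 lower), in 13 the antisense RNA alone (12 higher, 1 lower), and in 5 both were. The partners called came to 29 of 152 (19.1%), beside 18.5% of all protein-coding genes tested. The antisense RNAs called came to 18 (11.8%), beside 17.5% of all genes and 13.7% of all members. Of all 197 members with a partner, 20 rose (10.2%, beside 7.55% of all genes) and 3 fell (1.52%, beside 9.97%). Over the 152 pairs the median log2 fold change was 0.24 for the antisense RNAs and -0.08 for the partners. Across the 152 pairs the changes had a Pearson r of 0.16, a description over genes of the same libraries.

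In 4 of the 5 pairs with both called, the genes moved the same way. RASSF8-AS1, which starts 736 bases from RASSF8, a gene with a Ras association domain, was at 17.99, 18.2, 15.9, 16.5 and 16.2 RPM in gCtl, 14.6, 10.5 and 10.4 RPM in g1 and 4.17 and 5.14 RPM in g2, and RASSF8 at 31.2, 33.9, 37.6, 31.0 and 41.3 RPM in gCtl, 23.5, 21.8 and 21.1 RPM in g1 and 9.103 and 9.93 RPM in g2. Both were lowest in g2 (log2 fold change over both guides -0.88 ± 0.26 and -1.0). PROX1-AS1 was at 5.73 to 16.6 RPM in gCtl and 2.59 to 8.39 RPM in the guide libraries and the homeobox gene PROX1 at 49.6 to 79.9 RPM in gCtl and 20.6 to 33.2 RPM in the guide libraries (-1.17 ± 0.33 and -0.96). TTN-AS1 rose with the titin gene TTN (0.69 ± 0.20 and 0.71), and MGAT3-AS1 with MGAT3, which adds the bisecting branch to N-glycans (1.18 ± 0.38 and 1.11). MGAT3-AS1 passed the level rule through the guide libraries alone and had to differ.

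Each of these 4 antisense calls was lost when some single library was left out. RASSF8-AS1 lost its call without gCtl library 1, 2 or 4 or g2 library 2, TTN-AS1 without gCtl library 2, 3 or 4 or g1 library 1, PROX1-AS1 without gCtl library 3, and MGAT3-AS1 without gCtl library 1, 2, 3 or 4, g1 library 3 or g2 library 2.

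In the fifth pair the genes moved apart. PPP3CB-AS1 rose in all guide libraries, as given above, while PPP3CB fell, at 18.5, 25.3, 23.3, 22.5 and 14.8 RPM in gCtl, 15.6, 12.9 and 10.5 RPM in g1 and 15.3 and 12.01 RPM in g2 (log2 fold change -0.59 ± 0.19 (SE), adjusted p = 0.0363). The ratio of the antisense RNA to its partner, log2((RPM + 1)/(RPM + 1)), was -1.89 ± 0.26 in gCtl and 0.00 ± 0.44 in the guide libraries (SD, n = 5 each). USP54, whose exons hold 18.02% of the exon bases of PPP3CB-AS1 on the opposite strand, rose as well, from 20.4 ± 2.68 RPM in gCtl to 34.6 ± 5.81 RPM with guides (SD, n = 5 each) (log2 fold change 0.82, adjusted p = 0.00394), and reads of the stretch they share cannot be told apart. The call of PPP3CB-AS1 was kept under all 21 alternatives. The call of PPP3CB was lost in 9 of the 21: with glmTreat, a test against a fold of 1.5, with the mean of the separate guide contrasts, and without gCtl library 1, 2, 3 or 4, g1 library 2 or 3, or g2 library 2.

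**Figure D2:**
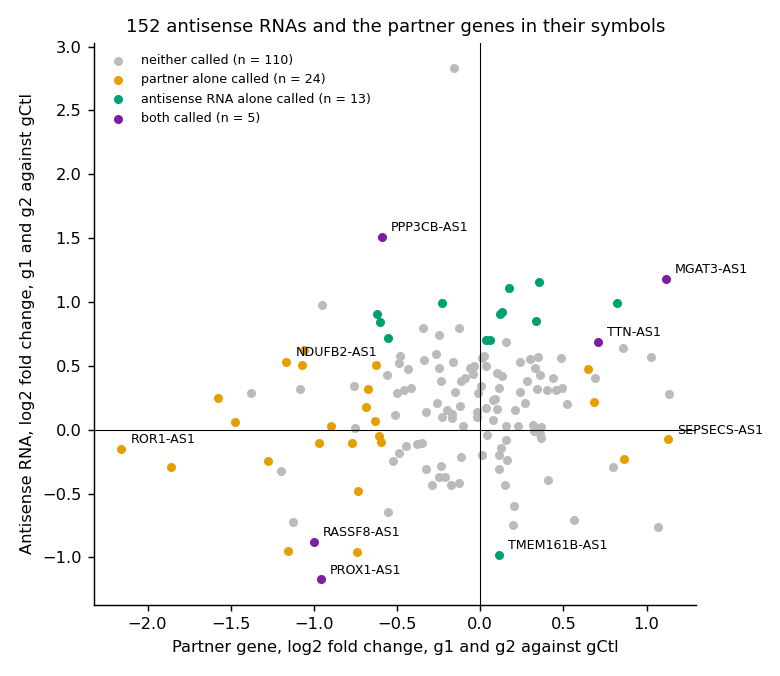
Log2 fold change of g1 and g2 together against gCtl for the antisense RNA (vertical axis) and the coding gene its symbol names (horizontal axis), 1 point a pair, 152 pairs, coloured by which of the genes was called. 4 of the 5 pairs with both called lie near the diagonal and PPP3CB-AS1 lies off it; the uncalled point at the top is SMAD1-AS1 (2.83, adjusted p = 0.0515), which was at 0 in 4 gCtl libraries.

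A ratio within a library depends little on how the library is scaled. The ratio had no overlap between gCtl and the guide libraries in 18 of the 152 pairs (11.8%), 15 shifted towards the antisense RNA and 3 towards the partner, beside 10.9% of 2150 pairs of coding genes that lie on opposite strands within 1000 bases. Each of these 18 has the smallest p that 5 against 5 libraries allow in an exact two-sided permutation test, 0.00794. Without gCtl library 5, 31 pairs had no overlap, and without any other single library 19 to 24. Leaving out a library can only keep or raise this count.

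In 5 of the 15 the partner fell and the antisense RNA was not called. ROR1-AS1 was at 14.6, 14.7, 15.0, 16.4 and 13.6 RPM in gCtl, 13.2, 15.6 and 11.2 RPM in g1 and 9.27 and 15.5 RPM in g2, so that the groups overlapped, while ROR1, a receptor tyrosine kinase of Wnt5a signalling, was at 25.01, 30.5, 38.05, 30.7 and 38.2 RPM in gCtl, 15.6, 9.68 and 3.21 RPM in g1 and 4.73 and 3.28 RPM in g2. The ratio shifted by 2.01 on the log2 scale, and ROR1 fell (log2 fold change -2.16 ± 0.34 (SE), adjusted p = 0.000828). NDUFB2, a subunit of respiratory complex I, fell (log2 fold change -1.17, adjusted p = 8.75e-05) beside NDUFB2-AS1 (log2 fold change 0.53, adjusted p = 0.136). KIZ-AS1 (ratio shift 0.76) and PTPRG-AS1 (0.70) likewise had a partner that fell (log2 fold change -0.69 and -0.77).

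MIF-AS1 and its partner gave a shift of 1.17, with MIF at 147, 170.0, 127, 139 and 124 RPM in gCtl, 105, 71.9 and 52.5 RPM in g1 and 88.8 and 123 RPM in g2. MIF fell (log2 fold change -0.62, adjusted p = 0.0324), and 35.0% of the exon bases of MIF-AS1 lie in coding exons opposite to it.

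In 4 others the antisense RNA rose and the partner was not called. PSMD5-AS1, beside the gene of a proteasome assembly factor, gave 5.04 to 8.91 RPM in gCtl and 9.22 to 15.9 RPM in the guide libraries and a shift of 1.39. LAMTOR5-AS1, beside a subunit gene of the lysosomal Ragulator complex, gave 7.88 to 13.6 RPM in gCtl and 13.1 to 29.1 RPM in the guide libraries and a shift of 1.37. MZF1-AS1 and MAN1B1-AS1, beside a zinc-finger gene and the gene of an endoplasmic reticulum mannosidase, shifted by 1.24 and 1.09. These 4 rose by 0.85, 0.91, 0.72 and 1.0 on the log2 scale, and the partners' adjusted p were 0.0592, 0.0833, 0.225 and 0.507. In 5 more of the 15 neither gene was called. These were DGUOK-AS1, EXTL3-AS1, NEXN-AS1, DLX6-AS1 and SLC25A25-AS1, with ratio shifts of 1.54, 1.06, 0.90, 0.74 and 0.52. PPP3CB-AS1 is the last of the 15.

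The 3 pairs that shifted towards the partner were SEPSECS-AS1, TMEM161B-AS1 and MCM3AP-AS1. SEPSECS, the enzyme that makes selenocysteine on its tRNA, rose at a low level, with 1.58 to 3.28 RPM in gCtl and 4.86 to 5.87 RPM in the guide libraries (log2 fold change 1.13, adjusted p = 0.0153), beside SEPSECS-AS1 at 45.4 to 70.6 RPM in gCtl and 35.2 to 74.2 RPM in the guide libraries. TMEM161B-AS1, head to head with TMEM161B at 581 bases, fell, with 4.69 to 7.67 RPM in gCtl and 1.77 to 3.66 RPM in the guide libraries (log2 fold change -0.98 ± 0.28 (SE), adjusted p = 0.0229), and TMEM161B gave 61.2 to 74.5 RPM in gCtl and 60.2 to 77.7 RPM in the guide libraries. MCM3AP-AS1 was at 42.1, 37.2, 40.6, 42.9 and 35.3 RPM in gCtl, 28.3, 38.6 and 29.3 RPM in g1 and 16.5 and 14.3 RPM in g2, with MCM3AP at 44.9, 43.4, 43.2, 39.3 and 39.8 RPM in gCtl, 53.3, 48.3 and 50.3 RPM in g1 and 39.0 and 42.4 RPM in g2, and neither was called over both guides.

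**Figure D3:**
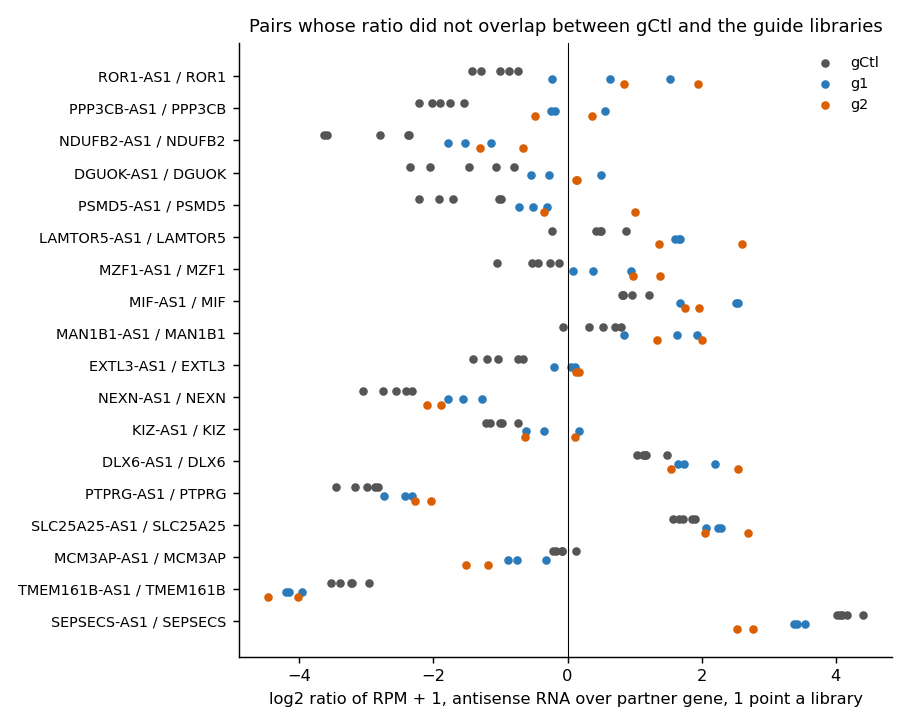
Log2 ratio of RPM + 1 of the antisense RNA over its partner (horizontal axis) in the 18 pairs without overlap between gCtl and the guide libraries, 1 point a library, gCtl (n = 5), g1 (n = 3) and g2 (n = 2). 15 pairs lie to the right of gCtl with guides, by up to 2.01 for ROR1-AS1, and the lowest 3 lie to the left.

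The other antisense RNAs called beside a partner that was not were TMCC1-AS1, KDM4A-AS1, CTBP1-AS2, ARHGEF19-AS1, ACVR2B-AS1, EAF1-AS1, DHRS4-AS1 and FRMD6-AS1. All 8 rose, by 0.70 to 1.15 on the log2 scale (0.70 for CTBP1-AS2 and 1.15 for ACVR2B-AS1), and their ratios overlapped between the groups. With g1, 8 of the 152 antisense RNAs (5.26%, beside 13.9% of all genes) and 24 partners (15.8%, beside 15.5% of protein-coding genes) were called.

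Genes of RNA surveillance and decay, most of them nuclear (the exosome and its cofactors) and some cytoplasmic (UPF1, DCP2, XRN1), were read beside the members. Of 31 listed genes, 29 were tested and 3 fell (10.3%, beside 9.97% of all genes), a share near that of all genes, and none rose. The 3 are core subunits of the RNA exosome. EXOSC5 was at 15.1, 17.4, 10.8, 12.7 and 12.9 RPM in gCtl, 2.26, 3.87 and 4.12 RPM in g1 and 4.08 and 2.73 RPM in g2 (log2 fold change -1.94 ± 0.25 (SE), adjusted p = 0.000181). EXOSC7 was at 8.59 to 26.4 RPM in gCtl and 5.21 to 7.92 RPM in the guide libraries (log2 fold change -1.50 ± 0.25 (SE), adjusted p = 0.0012) and EXOSC4 at 19.8 to 29.7 RPM in gCtl and 11.6 to 18.9 RPM in the guide libraries (log2 fold change -0.71 ± 0.19 (SE), adjusted p = 0.017). The guide libraries lay below gCtl without overlap for all 3. The median of the 29 was -0.04, and whether these genes bear on the members was not tested.

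The last comparison set the guides against each other. 33 members differed between g2 and g1 (4.6%, beside 3.96% of all genes), of which 6 were higher in g2 (beside 1.17%) and 27 lower (beside 2.79%). The g2 libraries are also those with the higher lincRNA sum. The count fell to 12 without g1 library 1, to 17 without g1 library 2, to 20 without gCtl library 3 or g2 library 2, and rose to 56 without g2 library 1. CTA-384D8.36 and XXbac-BPG252P9.10 were called under every alternative.

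XXbac-BPG252P9.10, which overlaps the stress-response gene IER3, was at 31.8, 39.0, 30.5, 26.3 and 34.1 RPM in gCtl, 30.9, 19.1 and 19.5 RPM in g1 and 7.12 and 7.02 RPM in g2, with g2 far under both other groups (log2 fold change -1.60 ± 0.27 (SE), adjusted p = 0.00365). CTA-384D8.36, opposite to SCO2, a factor for assembly of cytochrome oxidase, was at 1.82, 4.41, 2.70, 3.50 and 2.29 RPM in gCtl, 4.17, 3.66 and 4.01 RPM in g1 and 0 and 0.137 RPM in g2 (adjusted p = 0.00262), and its fitted fold depends on a few counts. AC079742.4 was at 0 in both g2 libraries and at least 3.72-fold lower than in g1.

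5 of the 27 were called higher in g1 and not called in g2 against gCtl. AC020571.3 was described above. NOP14-AS1, opposite to NOP14, a gene of ribosome assembly, was at 29.9, 26.3, 25.6, 34.0 and 26.6 RPM in gCtl, 43.5, 51.5 and 55.3 RPM in g1 and 26.0 and 15.17 RPM in g2 and rose in g1 (log2 fold change 0.84 ± 0.19), while g2 gave -0.34 ± 0.23. RP11-323N12.5, within exons of the protease inhibitor gene TIMP2, was at 29.7, 24.9, 18.4, 28.9 and 21.2 RPM in gCtl, 44.0, 31.6 and 68.4 RPM in g1 and 12.7 and 21.9 RPM in g2. CTD-2026K11.2, over IMP3, was at 77.6, 77.8, 62.2, 69.7 and 93.5 RPM in gCtl, 128, 121 and 95.2 RPM in g1 and 50.2 and 56.2 RPM in g2. Both g2 libraries of CTD-2026K11.2 lay below every gCtl library. AC092155.4 gave log2 fold changes of 1.0 ± 0.21 in g1 and -0.05 ± 0.25 in g2.

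Most of the others were called lower in g2 against gCtl and not called in g1. IL10RB-AS1, which starts 98 bases from a subunit gene of the interleukin-10 receptor and has 80.9% of its exon bases in exons of IFNAR2, was at 24.5, 26.7, 22.2, 27.4 and 26.2 RPM in gCtl, 30.7, 26.1 and 24.4 RPM in g1 and 7.36 and 13.0 RPM in g2 (log2 fold change -1.31 ± 0.24 (SE), adjusted p = 0.007). PAXBP1-AS1 was at 17.6, 16.2, 19.5, 20.96 and 18.8 RPM in gCtl, 20.9, 19.2 and 14.6 RPM in g1 and 7.60 and 8.09 RPM in g2. RP13-1032I1.7, AC003991.3, XXyac-YRM2039.3 and XXbac-BPG154L12.4 had g2 against g1 values of -0.97 ± 0.22, -1.14 ± 0.23, -0.86 ± 0.17 and -0.83 ± 0.22 on the log2 scale. XXyac-YRM2039.3 overlaps WASHC1, one of several near-identical copies, so its counts are uncertain.

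The 6 that were higher in g2 include RP1-56K13.3, within LASP1, which fell in g1 (log2 fold change -2.53) and gave -0.94 in g2, at 85.3, 54.6, 55.9, 86.6 and 28.004 RPM in gCtl, 13.9, 5.13 and 11.8 RPM in g1 and 35.5 and 23.8 RPM in g2. The other 5, RP11-715J22.2, DNAJC9-AS1, RP11-867G23.8, AC007292.6 and RP11-350J20.5, rose in g2 against gCtl and were not called in g1. RP11-715J22.2 had the largest estimate, at 9.68, 10.8, 16.2, 16.5 and 10.5 RPM in gCtl, 12.6, 12.1 and 20.4 RPM in g1 and 61.9 and 25.4 RPM in g2 (log2 fold change 1.63 ± 0.36 (SE), adjusted p = 0.02), with its g2 libraries far apart.

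**Figure D4:**
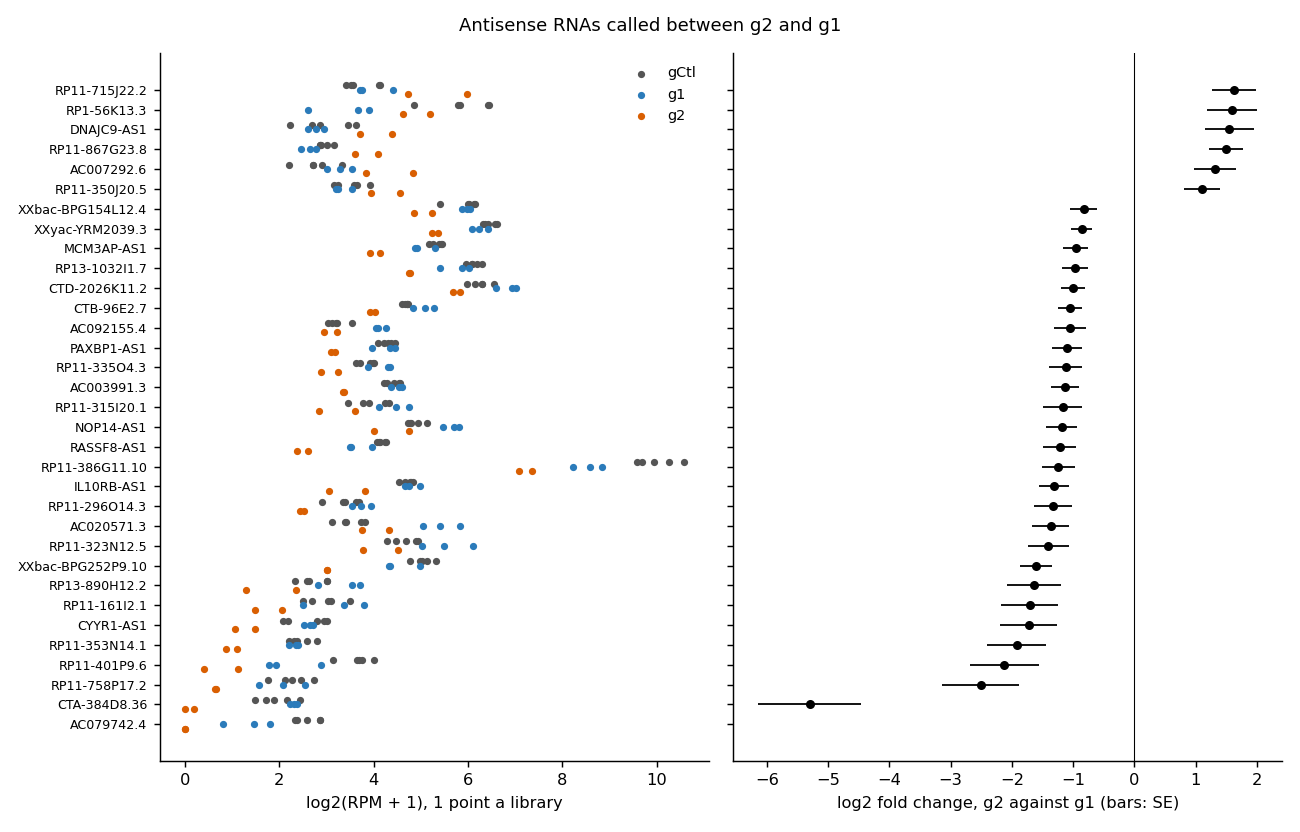
The 33 members called between g2 and g1. Left, log2(RPM + 1) in each library of gCtl (n = 5), g1 (n = 3) and g2 (n = 2). Right, log2 fold change of g2 against g1 with its SE; AC079742.4 has no point there because it is at 0 in g2, and 6 members lie to the right of 0.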

How the data were processed

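The authors deposited 1 table of estimated counts per library, with 199169 transcripts, from QuantSeq 3′ libraries quantified by Kallisto (version 42.5 in the submitters' notes) against GENCODE release 24 (GRCh38). Strand settings are not given in the sources used here. Here, the estimated counts were summed by gene, divided by the library total for RPM, and rounded to whole numbers for edgeR 4.0.16 (R 4.3.3, TMM, quasi-likelihood test, Benjamini-Hochberg over all 14657 genes above 3 RPM in at least 2 libraries, called at adjusted p of 0.05 and 1.5-fold). One fit had 2 groups and another 3. Pair ratios used a pseudocount of 1 and exact permutation (Python 3.11.15). Scripts were tested on simulated data. Positions, overlaps and transcript ends come from GENCODE release 29 and promoters from RefSeq, matched by identifier or symbol.

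Members, lists and classes were chosen with earlier results of these data known. Genes named by rule are the 10 highest by mean RPM, the 8 largest increases and decreases called, those called between the guides, pairs with both genes called, each with its partner, and the target. Others, such as members inside opposite coding exons and pairs whose ratio did not overlap between the groups, were named after their values were seen. Library numbers only name libraries within a group. Depth was 3838803 to 8730468 estimated counts. Floors of 3 counts per library cover counting error only. Alternatives were DESeq2 1.42.0, limma 3.58.1, other scalings, filters, pseudocounts and fold tests, and each library left out.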

Additional observations from a re-analysis of the deposited data

Results flagged for a closer look

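In 74 groups of 5 libraries examined, 3 had a library apart from the other 4 by Dixon's ratio (above 0.71), where chance gives about 1 in 20. RP11-846F4.12 was at 465 RPM in g2 library 2, with the next at 237 RPM. ZSCAN16-AS1 was at 94.8 RPM in the same library, with the next at 42.4 RPM. PROX1, the partner of PROX1-AS1, was at 79.9 RPM in gCtl library 3, with the next at 56.7 RPM.

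The 33 members whose response differed between the guides, by edgeR's test of g2 against g1, are given by log2 fold change. Lower in g2 were AC079742.4 (-6.16), CTA-384D8.36 (-5.30), RP11-758P17.2 (-2.51), RP11-401P9.6 (-2.12), RP11-353N14.1 (-1.92), CYYR1-AS1 (-1.72), RP11-161I2.1 (-1.71), RP13-890H12.2 (-1.64), XXbac-BPG252P9.10 (-1.60), RP11-323N12.5 (-1.40), AC020571.3 (-1.37), RP11-296O14.3 (-1.33), IL10RB-AS1 (-1.31), RP11-386G11.10 (-1.24), RASSF8-AS1 (-1.22), NOP14-AS1 (-1.19), RP11-315I20.1 (-1.17), AC003991.3 (-1.14), RP11-335O4.3 (-1.12), PAXBP1-AS1 (-1.10), AC092155.4 (-1.05), CTB-96E2.7 (-1.05), CTD-2026K11.2 (-1.0), RP13-1032I1.7 (-0.97), MCM3AP-AS1 (-0.96), XXyac-YRM2039.3 (-0.86) and XXbac-BPG154L12.4 (-0.83). Higher in g2 were RP11-350J20.5 (1.10), AC007292.6 (1.32), RP11-867G23.8 (1.49), DNAJC9-AS1 (1.55), RP1-56K13.3 (1.60) and RP11-715J22.2 (1.63). The values for AC079742.4 and CTA-384D8.36 rest on g2 libraries at or near 0 and are no bounds.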

How the results depend on the processing

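No paired analysis was possible because the labels give the libraries no replicate numbers. For the members named by rule, no log2 fold change that was followed changed sign in any alternative, but the balance of rises and falls did. Members named after their values were seen were not followed one by one. Tested against a fold of 1.5 (edgeR's glmTreat), the calls dropped to 18 members over both guides, 16 in g1, 41 in g2 and 3 between the guides, and falls outnumbered rises (7 and 11 over both guides, 4 and 12 in g1, 15 and 26 in g2). In g2 falls also outnumbered rises with library totals (60 and 73), limma on log2(RPM + 1) (47 and 78), and without gCtl library 1 (61 and 62) or g2 library 2 (14 and 39), and in g1 without gCtl library 1 (24 and 26) or g1 library 3 (14 and 20). The member median of g2 against g1, 0.05, became -0.04 with library totals, -0.05 with that limma fit and -0.14 without g2 library 2. With 1 library left out, the counts ranged from 62 to 109 over both guides, 34 to 84 in g1, 53 to 206 in g2 and 12 to 56 between the guides. In the same fits 19 to 31 pairs had a ratio without overlap, a count that leaving out a library cannot lower. The 44 members inside opposite coding exons gave 1 to 3 rises and 12 to 18 falls over the 20 other alternatives, with a median of -0.48 to -0.35, and 1 and 5 with glmTreat. Of the 21 members called over both guides and named by level, largest change or a called partner, 14 kept the call under every alternative and 17 with each library left out. RP11-728F11.4, AC079742.4 and RP11-746M1.1 lost it with glmTreat alone, and RASSF8-AS1, TTN-AS1, PROX1-AS1 and MGAT3-AS1 also as given above, MGAT3-AS1 with limma too. The 14 include the members at 0 in all guide libraries, which passed the level rule through gCtl alone and had to differ. The 17 also include AC079742.4, which passed in the same way. Most of the 21 were named as the largest changes of the main fit, which favours keeping a call, so these counts say little about the other calls. Of the 33 called between the guides, 2 kept the call under every alternative and 6 with each library left out. The cause of these changes was not tested. Leaving out a library changes both the number of libraries and which of them are compared. g2 has 2 libraries, and the median member has few counts.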

Other observations

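Chromosome 21 was looked at after the values were seen, since several of the 33 members that differed between the guides lie on it. Of the 12 members on that chromosome, 4 were lower in g2 than in g1 by edgeR's test: MCM3AP-AS1, IL10RB-AS1, PAXBP1-AS1 and CYYR1-AS1, the last an antisense RNA of CYYR1 (log2 fold change -0.96, -1.31, -1.10 and -1.72). The median of the 12 was -0.33. Of all 160 genes tested on chromosome 21, 18 were lower (11.2%, beside 2.79% of all genes) and 4 higher, with a median of -0.26, while the medians of the other autosomes ran from -0.11 to 0.20. Against gCtl, g2 had 5 of the 12 members and 43 of the 160 genes lower (26.9%, beside 11.9% of all genes), with a median of -0.33 over the 160, not far below the lowest of the other autosomes (-0.28 to 0.29). g1 had 8 of the 160 genes lower (5.0%, beside 8.39% of all genes), with a median of 0.02. The cause was not tested.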
